A study of Homo sapiens with 4 samples.

Results

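The HOX cluster genes comprised the 38 targets named HOXA, HOXB, HOXC or HOXD with a paralogue number, out of 20809 targets in the assay. They were chosen by gene symbol alone, and 11 belonged to HOXA, 10 to HOXB, 8 to HOXC and 9 to HOXD. HOXC4 was not analysed here. RNA abundance was compared between a drug-resistant subline (MDA-MB-468/R) and its parental line (MDA-MB-468/WT), with 2 libraries each, to ask whether acquired resistance came with altered HOX transcripts. MDA-MB-468 is a human basal-type triple-negative breast cancer (TNBC) cell line. MDA-MB-468/R is its subline, obtained by 6 months of exposure to rising doses of adriamycin (doxorubicin, an anthracycline), cytoxan (cyclophosphamide, an alkylating agent) and taxotere (docetaxel, a microtubule drug). MDA-MB-468/WT is the parental line, labelled as wild type with no treatment, although a protocol label shared by all libraries names the drugs. Each group is 1 line, and the labels do not say whether its libraries came from separate cultures, so p-values measure only the spread between these libraries.

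HOX genes encode homeodomain transcription factors that give cells their position along the head-to-tail axis of the embryo. They lie in 4 clusters on different chromosomes, and genes with the same number in different clusters are paralogues. Low-numbered (anterior) genes are used toward the head and high-numbered (posterior) genes toward the tail and limbs. The proteins bind DNA together with TALE homeodomain cofactors of the PBX, MEIS and PKNOX families. Trithorax complexes keep the clusters active, Polycomb complexes keep them silent, and retinoic acid opens them from the anterior end. Adult epithelia, the mammary gland included, retain part of the embryonic pattern.

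HOX promoters are rich in CpG, the dinucleotide at which DNA is methylated, and 3 of them are shown here because they belong to genes that were read well, near the detection limit and not at all. Each run is the 150 bases before a RefSeq gene start on GRCh38.p14, written 5′ to 3′ on the gene's strand with every CpG in capitals. HOXA10, on the minus strand (chr7:27179862-27180011), has 14 CpG and was read in every library. The 150 bases before its other start (chr7:27174321-27174470), not shown, have 19 CpG, and which start gave the reads was not determined. HOXA9, the neighbour of HOXA10 on the same strand (chr7:27165538-27165687), has 15 CpG and had reads in the resistant libraries alone. HOXD10, on the plus strand (chr2:176116628-176116777), has 10 CpG and had no read in any library.
HOXA10: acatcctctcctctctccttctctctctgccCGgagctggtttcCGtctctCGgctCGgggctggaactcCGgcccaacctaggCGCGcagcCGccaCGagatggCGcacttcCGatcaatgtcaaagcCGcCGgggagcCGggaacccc
HOXA9: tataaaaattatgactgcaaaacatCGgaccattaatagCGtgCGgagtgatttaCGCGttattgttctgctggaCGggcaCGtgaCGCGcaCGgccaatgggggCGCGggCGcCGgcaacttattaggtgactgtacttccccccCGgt
HOXD10: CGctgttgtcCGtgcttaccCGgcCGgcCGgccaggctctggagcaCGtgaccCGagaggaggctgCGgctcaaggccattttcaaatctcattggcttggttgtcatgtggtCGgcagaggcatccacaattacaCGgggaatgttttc

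Of the 38 members, 19 matched RefSeq promoter windows of 300 bases, 250 before and 50 after the start. Over the 26 windows of these members, HOXA3 having 7 and HOXA10 having 2, the median was 22.5 CpG, against 14 in all 35116 windows. The 11 windows of the 4 tested members ran from 0 to 29 CpG, with a median of 21, and the 7 windows of members without a read ran from 4 to 27, with a median of 23. The letters CCAAT, searched on both strands, were in 17 of the 26 HOX windows and in 34.6% of all windows. TATAAA was in 5 HOX windows and 11.5% of all windows, GGGCGG in 13 and 45.0%, and TGATTNAT, a PBX-HOX type site, in 2 and 2.82%. These matches are descriptions of the letters, and methylation was not measured.

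Abundance is given in reads per 1000000 reads (RPM) on the targeted genes. Each gene was read through 1 short amplicon, so gene length does not enter the values, but amplicons differ in yield and levels of different genes carry that yield. The libraries held 6839939 to 7979992 reads. A count of 0 allows up to 3 reads, or 0.376 to 0.439 RPM, counting error only. Epithelial markers (EPCAM, CDH1, KRT8, KRT18, KRT19 and EGFR) were abundant in every library. At an adjusted p of 0.05, 0 of the 6 differed, where 16% of all genes tested did. Both resistant libraries lay below both parental ones for CDH1, KRT8, KRT18, KRT19 and EGFR, while those of EPCAM overlapped. Over all genes tested, 32.2% were separate in that direction. ESR1 was at 0.283 and 1.23 RPM in the resistant libraries and at 3.23 and 1.38 RPM in the parental libraries, PGR did not exceed 0.404 RPM, and ERBB2 lay between 6.89 and 13.4 RPM. The cells thus carried the epithelial markers of their label. RNA of ESR1 and ERBB2 was read in every library, and receptor protein was not measured here.

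HOX transcripts were scarce in both lines, and the same clusters were read in each. Of the 38 members, 29 had at least 1 read and 9 had none in any library. The remaining 22 members outside the 16 with a mean of at least 1 RPM in a group never exceeded 5 reads, or 0.682 RPM, in a library. A total of 15 members reached the test (at least 10 reads in 2 libraries), or 39.5% of members against 58.2% of all targets. Their median level was 7.56 RPM, against 26.4 RPM over the 12118 genes tested, and the highest was HOXC10 at a mean of 33.0 RPM.

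**Figure D1:**
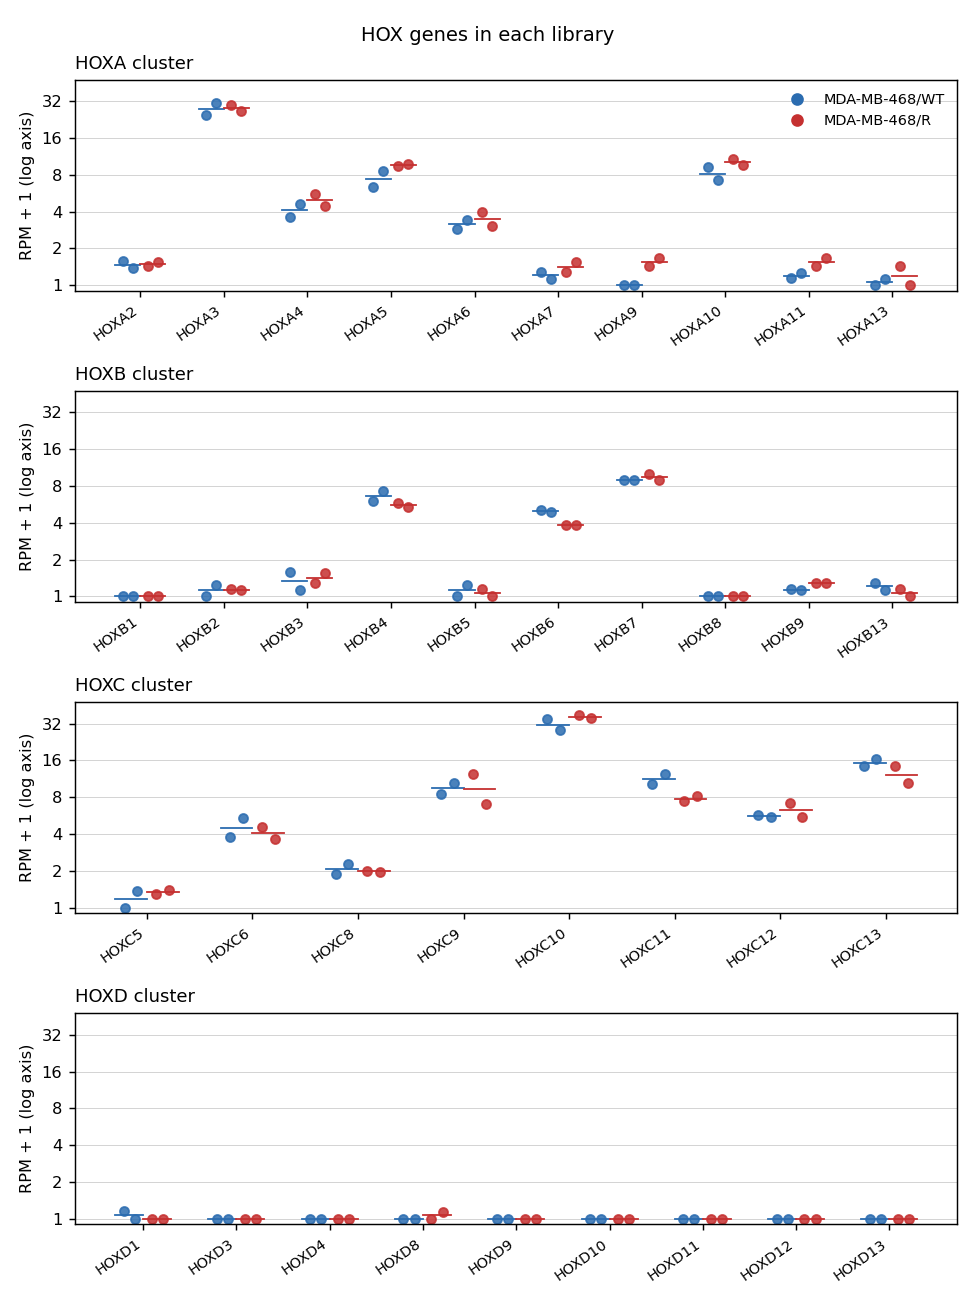
Abundance of HOX genes in each library, by cluster and paralogue number, as RPM + 1 on a log axis. Points are libraries (blue, MDA-MB-468/WT, and red, MDA-MB-468/R) and short lines are the group means on the log2 scale. HOXA3 and HOXC10 stand highest in all 4 libraries, whereas the HOXD genes lie at the bottom of the axis.

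The order of HOX levels was nearly the same in the parental line and the resistant subline. The Spearman correlation of the group means was 0.948 over the 38 members and 0.900 over the 15 tested members. It is given as a description, since the amplicon yield of each gene is common to both lines. HOXA3, a regulator of pharyngeal arch, thymus and parathyroid development, and HOXC10, a posterior gene used in the lumbar region and hindlimb, were the most abundant members of their clusters. HOXA3 was at 28.7 and 25.5 RPM in the resistant libraries and at 23.8 and 29.9 RPM in the parental libraries. HOXC10 was at 36.5 and 34.5 RPM in the resistant libraries and at 33.8 and 27.2 RPM in the parental libraries. The libraries overlapped for HOXA3 and were separate for HOXC10, where MDA-MB-468/R was higher.

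Expressed members lay in runs along the clusters. In HOXC, all 7 members from HOXC6 to HOXC13 reached 1 RPM in a group. In HOXA, members at this level included the stretch from HOXA3 to HOXA6 and, further along, HOXA10. In HOXB they were HOXB4, HOXB6 and HOXB7. No HOXD gene reached it.

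**Figure D2:**
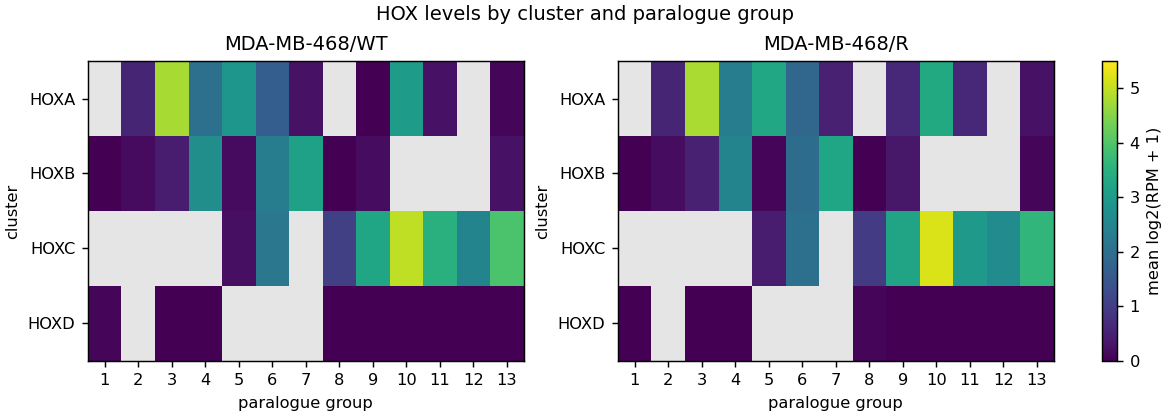
Mean log2(RPM + 1) of the 2 libraries of each line, with clusters as rows and paralogue groups 1 to 13 as columns. Grey squares are not shown. The bright posterior stretch of HOXC, the stretch of HOXA from group 3 to group 6 and the dark HOXD row appear in both lines.

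HOXD, the cluster best known for patterning the limb and digits, was close to silent in both lines. HOXD1 had 1 read in parental replicate 1 and HOXD8 had 1 read in resistant replicate 2. These were the 2 HOXD reads in all 4 libraries together, and the other 7 HOXD genes had none. The flanking genes of this cluster were read well. MTX2 was at 66.2 and 73.0 RPM in the resistant libraries and at 57.9 and 60.8 RPM in the parental libraries, and KIAA1715 was between 21.3 and 27.2 RPM in all libraries. EVX2, HOXD-AS1 and HOXD-AS2, which lie beside or within HOXD, were at 0 reads in every library.

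No HOX gene passed the test for a difference between the lines. With limma and Benjamini-Hochberg adjustment over all 12118 genes, 0 of the 15 tested members were higher and 0 were lower in MDA-MB-468/R at an adjusted p of 0.05. Over all genes, 5.36% were higher and 10.6% were lower, and 16% passed in either direction. Of the 15 HOX genes, 1 (HOXC11) had an unadjusted limma p under 0.05. So did at least the 16% of all genes that passed after adjustment. The adjusted p ran from 0.0984 for HOXC11 to 0.964 for HOXC9, and the next lowest after HOXC11 was 0.255. A binomial sampling model without replicate spread placed 1 member (HOXC10) higher and 2 members (HOXC11 and HOXC13) lower. The same model called 6397 of the 12118 genes in either direction.

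The intervals limit how large a change could have been missed. The 95% intervals of the log2 fold changes spanned −0.982 to 0.872 over the 15 genes. On the RPM + 1 scale, which understates the change of low genes, this is from 1.98-fold lower to 1.83-fold higher in MDA-MB-468/R. All 15 lay within the 2.5-fold threshold that the study used for differentially expressed genes (DEGs), and the same held for 90.7% of all genes tested. With limma-voom on recovered reads the intervals spanned −1.12 to 1.06, and 15 again lay within the threshold, beside 84.8% of all genes. Leaving out resistant replicate 1 or parental replicate 1 left 14 of 15 within it. The log2 fold changes were positive for 8 members and negative for 7. Their median was 0.02, against −0.03 over all genes, and the median of their sizes was 0.22, against 0.24 over all genes.

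**Figure D3:**
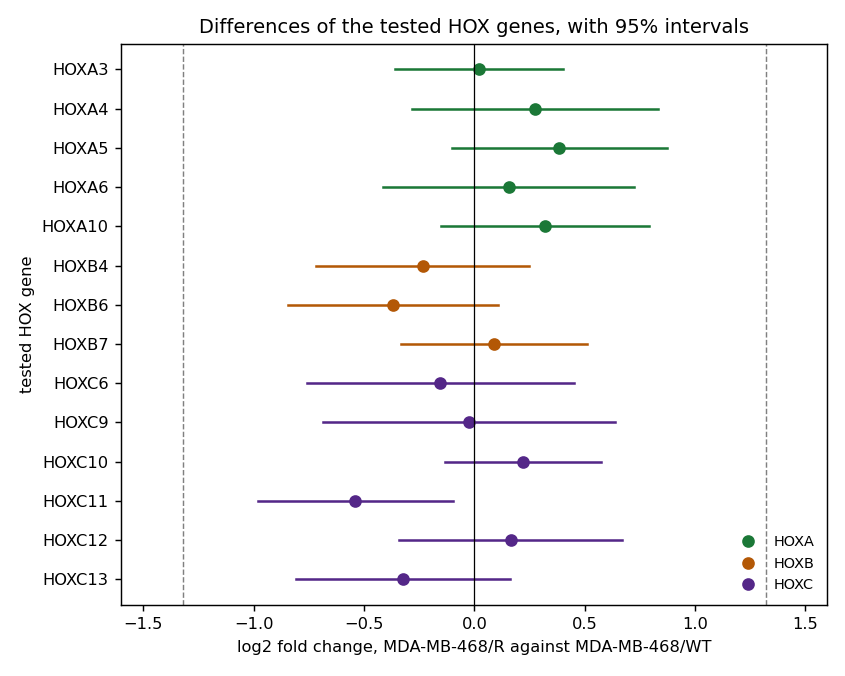
Log2 fold change (MDA-MB-468/R over the parental line) for tested HOX genes, with 95% intervals from limma (not adjusted for the number of genes), coloured by cluster. Dashed lines mark a 2.5-fold change. All intervals lie between the dashed lines, and that of HOXC11 alone does not cross 0.

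The libraries of the 2 lines were separate for 7 tested members and overlapped for 8. MDA-MB-468/R was higher for 4 members (HOXA5, HOXA10, HOXB7 and HOXC10) and lower for 3 (HOXB4, HOXB6 and HOXC11). Over all genes tested, 26.1% were separate with MDA-MB-468/R higher and 32.2% with MDA-MB-468/R lower. Resistant replicate 1 exceeded replicate 2 for 12 of the 15 members, with 1 at equal values, against 54.1% of all genes. The gap between the replicates of either line was larger than the difference between lines for 13 of 15 members, against 53.1% of all genes. These shares were not matched for level. The tested HOX genes had a median of 7.56 RPM against 26.4 RPM, and a median SE of 0.208 against 0.163.

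HOXC11, a posterior gene of hindlimb and kidney patterning, had the lowest p of the family. It was at 6.41 and 7.11 RPM in the resistant libraries (mean 6.76 ± 0.494, SD, n = 2) and at 9.34 and 11.3 RPM in the parental libraries (mean 10.3 ± 1.38, SD, n = 2). Each parental library lay above each resistant library. The log2 fold change was −0.54 (SE 0.189, limma adjusted p = 0.0984), which did not pass the threshold. Over the 11 alternatives that kept a term for replicate spread, the adjusted p was never below 0.091. It reached 0.612 without parental replicate 2.

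HOXC13, needed for hair and nail keratins, had the next lowest log2 fold change in the cluster. It was at 13.4 and 9.41 RPM in the resistant libraries and at 13.3 and 15.4 RPM in the parental libraries, and the libraries overlapped (−0.33, adjusted p = 0.333). HOXC9, which acts in thoracic motor neurons, was at 11.3 and 6.01 RPM in the resistant libraries and at 7.57 and 9.41 RPM in the parental libraries. The resistant libraries of HOXC9 lay on either side of the parental ones. HOXC12 was at 6.16 and 4.50 RPM in the resistant libraries and at 4.70 and 4.50 RPM in the parental libraries.

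The other HOXC members were lower in level. HOXC6, a central gene that is androgen-responsive in prostate, was at 3.56 and 2.60 RPM in the resistant libraries and at 2.78 and 4.39 RPM in the parental libraries. HOXC8, a trunk gene, had 7 and 7 reads in the resistant libraries and 6 and 10 reads in the parental libraries, too few to enter the test. HOXC5 had at most 3 reads in a library. None of these members separated the lines.

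The tested HOXA genes of the central and posterior part had positive log2 fold changes, none of which passed, and that of HOXA6 was negative (−0.04) without resistant replicate 1. HOXA5, a gene of lung and mammary development, had the highest of all members. It was at 8.45 and 8.85 RPM in the resistant libraries (mean 8.65 ± 0.284, SD, n = 2) and at 5.41 and 7.51 RPM in the parental libraries (mean 6.46 ± 1.49, SD, n = 2). The resistant libraries lay close together above both parental libraries, with a log2 fold change of 0.39 (SE 0.208, adjusted p = 0.255).

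HOXA10, a regulator of uterine differentiation and blood progenitors, was at 9.85 and 8.58 RPM in the resistant libraries and at 8.19 and 6.26 RPM in the parental libraries. Its log2 fold change was 0.32 (SE 0.202, adjusted p = 0.326), and the lines were separate by the margin between 8.58 and 8.19 RPM. HOXA4 was at 4.58 and 3.41 RPM in the resistant libraries and at 2.63 and 3.63 RPM in the parental libraries, and its libraries overlapped. HOXA6 was at 3.0 and 2.05 RPM in the resistant libraries and at 1.91 and 2.39 RPM in the parental libraries, again with overlap.

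HOXA9, known for its role in blood stem cells and leukaemia, was at the detection limit. It had 3 and 5 reads in the resistant libraries and 0 and 0 reads in the parental libraries. With no filter on low values it was the 1 member of 29 that passed, where 1820 of 16127 genes did in either direction. HOXA9 entered that fit only through its reads in the resistant libraries, so its values are given as levels. No fold is given, because 0 reads in a parental library allow up to 3. HOXA2, HOXA7, HOXA11 and HOXA13 had at most 5 reads in a library. HOXA11 had 3 and 5 reads in the resistant libraries and 1 and 2 reads in the parental libraries.

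HOXB was the least abundant of the 3 clusters with tested members. HOXB7, a gene linked to growth and migration of breast cancer cells, was at 8.99 and 7.94 RPM in the resistant libraries and at 7.88 and 7.88 RPM in the parental libraries. Although the libraries were separate, the log2 fold change was 0.09 (95% interval −0.331 to 0.511). HOXB6 was at 2.86 and 2.86 RPM in the resistant libraries and at 4.10 and 3.89 RPM in the parental libraries, with 20 to 31 reads in a library. Both resistant libraries lay below both parental ones (−0.37, adjusted p = 0.262).

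HOXB4, which supports self-renewal of blood stem cells, was at 4.86 and 4.35 RPM in the resistant libraries and at 4.98 and 6.26 RPM in the parental libraries. The lines were separate by the margin between 4.86 and 4.98 RPM (−0.23, adjusted p = 0.490). HOXB13, a prostate gene whose ratio to IL17BR has been used in breast cancer, had at most 2 reads in a library. HOXB2, HOXB3, HOXB5 and HOXB9 had at most 4, and HOXB1 and HOXB8 had none.

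The summed level of each cluster was close in the 2 lines. HOXA summed to 64.8 and 56.1 RPM in the resistant libraries and to 49.9 and 59.2 RPM in the parental libraries, a ratio of the means of 1.11. HOXB summed to 17.7 and 16.1 RPM in the resistant libraries and to 18 and 18.9 RPM in the parental libraries, a ratio of 0.917. HOXC summed to 78.7 and 65.5 RPM in the resistant libraries and to 72.4 and 73.9 RPM in the parental libraries, a ratio of 0.986. The libraries overlapped for HOXA and HOXC and were separate for HOXB.

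HOXC took 47.5% to 51.5% of the summed HOX RPM in each library, HOXA 35.6% to 40.7% and HOXB 11% to 12.8%. Without its most abundant member, the ratio of the resistant to the parental mean was 1.20 for HOXA (without HOXA3), 0.799 for HOXB (without HOXB7) and 0.858 for HOXC (without HOXC10). All 38 genes together summed to 161 and 138 RPM in the resistant libraries and to 140 and 152 RPM in the parental libraries. With 2 libraries against 2, an exact 2-sided permutation test cannot give a p below 0.333, so the sums were not tested.

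The median log2 fold change was 0.22 in HOXA (5 of 6 tested members positive), −0.23 in HOXB (1 of 3 positive) and −0.09 in HOXC (2 of 6 positive). The members of a cluster are not replicates, and no test of the difference between clusters was made. The HOXC median ran from −0.377 without resistant replicate 1 to 0.138 without resistant replicate 2. It was also positive without parental replicate 2, at 0.085. Over the same omissions the HOXA median was between 0.033 and 0.353. The HOXB median was −0.34 without parental replicate 1 and −0.095 without parental replicate 2.

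Paralogue position did not separate the lines. The 7 tested central members (paralogue groups 4 to 8) had a median log2 fold change of 0.09 and the 6 tested posterior members (groups 9 to 13) one of 0.07. Central genes summed to 38.0 and 34.1 RPM in the resistant libraries and to 30.9 and 37.9 RPM in the parental libraries. Posterior genes summed to 85.4 and 71.8 RPM against 77.5 and 74.8 RPM. The libraries of the lines overlapped at both positions.

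Paralogues of one number were tested together in 3 groups. In group 4, HOXA4 was at 0.28 and HOXB4 at −0.23 on the log2 scale. In group 6, HOXA6 was at 0.16, HOXB6 at −0.37 and HOXC6 at −0.16. In group 10, HOXA10 was at 0.32 and HOXC10 at 0.22. Signs thus differed within groups 4 and 6 and were alike in group 10, and none of these values passed the test.

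The 2 cluster lncRNAs with reads were separate between the lines, in opposite directions, without passing the threshold. Over all genes tested, 26.1% were separate with MDA-MB-468/R higher and 32.2% with MDA-MB-468/R lower, so being separate was common. Of 9 targets for cluster lncRNAs and EVX genes, 7 were at 0 reads in every library, HOTTIP and HOXA-AS3 included. HOTAIR, a lncRNA transcribed antisense from between HOXC11 and HOXC12 and known for binding Polycomb complexes, was at 20.3 and 13.9 RPM in the resistant libraries. In the parental libraries it was at 10.4 and 8.92 RPM, so both resistant libraries were higher. The log2 fold change was 0.75 (95% interval 0.245 to 1.25, limma adjusted p = 0.0555). It passed with RLE scaling between libraries (adjusted p = 0.0382) and without resistant replicate 2 (0.0492), and its adjusted p reached 0.415 without parental replicate 2.

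HOXC11 and HOXC12, the neighbours of HOTAIR, were at −0.54 and 0.17 on the same scale. The libraries were strand-specific by the methods of the study, but the position of each amplicon was not given in the sources used here. Overlap of the HOTAIR and HOXC11 amplicons could therefore not be checked. HOTAIRM1, a lncRNA from the anterior end of the HOXA cluster, was at 20.7 and 25.7 RPM in the resistant libraries and at 30.1 and 32.1 RPM in the parental libraries. Both resistant libraries were lower, with a log2 fold change of −0.41 and an adjusted p of 0.119.

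Of 7 HOX cofactors tested, 0 were higher and 2 were lower in MDA-MB-468/R, beside 5.36% and 10.6% of all genes. MEIS3 and PKNOX2 had at most 2 reads in a library and were not tested. MEIS2, a TALE partner of HOX proteins, was at 29.9 and 27.2 RPM in the resistant libraries and at 48.5 and 44.6 RPM in the parental libraries (−0.69 on the log2 scale, adjusted p = 0.0142). PBX4, a member of the PBX family, was at 3.86 and 4.24 RPM in the resistant libraries and at 7.17 and 8.51 RPM in the parental libraries (−0.81, adjusted p = 0.0331). PBX4 did not pass with any library left out or with no filter, and MEIS2 did not pass with either parental replicate left out. The median of the 7 was −0.27.

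Of 13 Trithorax and related activators tested, 0 were higher and 2 were lower, and 16% of all genes passed in either direction. DPY30, a core subunit of the MLL methyltransferase complexes, was at 136 and 133 RPM in the resistant libraries and at 220 and 197 RPM in the parental libraries (−0.63, adjusted p = 0.00867). KDM6A, an X-linked demethylase that removes the Polycomb mark from histone H3, was at 4.13 and 4.24 RPM in the resistant libraries and at 7.88 and 10.2 RPM in the parental libraries (−0.95, adjusted p = 0.021). KDM6A did not pass with any library left out, and DPY30 did not pass with either parental replicate left out. The list median was −0.10.

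Of 19 Polycomb genes tested, 1 was higher and 2 were lower in MDA-MB-468/R, again beside 16% of all genes passing in either direction. RING1, an E3 ligase of histone H2A, was at 102 and 93.4 RPM in the resistant libraries and at 66.2 and 69.0 RPM in the parental libraries (0.53, adjusted p = 0.0203). RBBP7, an X-linked histone-binding subunit found in Polycomb and several other complexes, was at 107 and 99.4 RPM against 163 and 163 RPM (−0.66, adjusted p = 0.00671). PHC1, a polyhomeotic subunit, was at 3.56 and 3.41 RPM against 6.41 and 8.78 RPM (−0.93, adjusted p = 0.0282). PHC1 did not pass with any library left out, and RING1 and RBBP7 did not pass with either parental replicate left out. EZH2, the catalytic subunit, was at 167 and 179 RPM against 198 and 188 RPM and did not pass (adjusted p = 0.329). The list median was −0.16.

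Retinoic acid receptors and CYP26 enzymes gave 0 calls among 6 tested, and the 6 caudal and ParaHox genes, which feed into HOX clusters in the embryo, were at 0 reads in every library. Over the 45 tested genes of the cofactor, Trithorax, Polycomb and retinoic acid lists, 1 was higher and 6 were lower, beside 5.36% and 10.6% of all genes. Leaving out parental replicate 1 or 2 left 0 calls in either direction, while the calls over all genes went from 1939 to 220 and 203. Without resistant replicate 1 there were 3 lower, and without replicate 2 there were 3 higher and 5 lower. Among the 7 flanking genes tested, which lay beside HOXA, HOXC and HOXD, none passed, where 16% of all genes passed in either direction. The flanking genes of HOXB were too low to be tested.

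**Figure D4:**
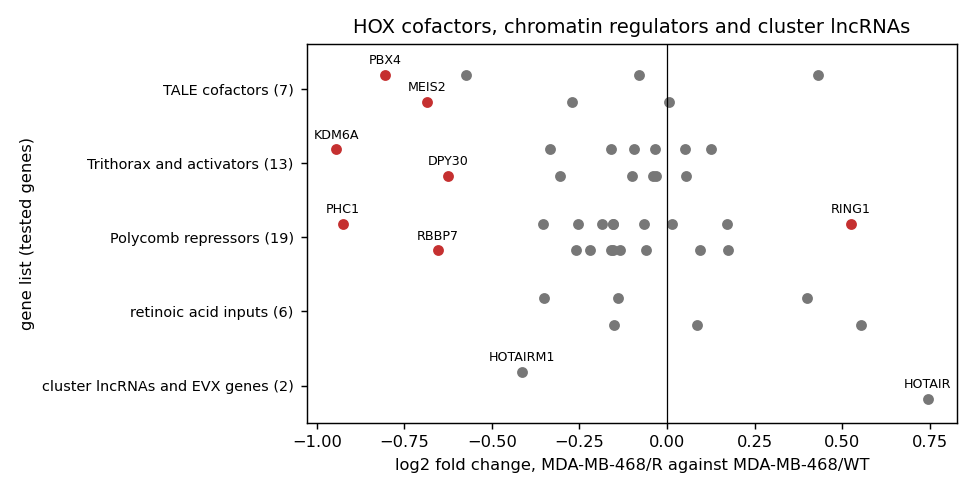
Log2 fold change (MDA-MB-468/R over the parental line) for tested HOX cofactors, chromatin regulators, retinoic acid genes and cluster lncRNAs, with the number tested in brackets. Red points have a limma adjusted p of at most 0.05 and grey points do not. The 7 red points are MEIS2, PBX4, DPY30, KDM6A, RBBP7 and PHC1, which were lower, and RING1, which was higher.

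Markers of other cells gave calls in 3 of 5 lists, where 16% of all genes passed in either direction. All 5 tested markers of mesenchymal-type lines (VIM, CAV1, CAV2, MSN and NT5E) were lower in MDA-MB-468/R, and the list of 6 summed to 525 and 566 RPM against 1431 and 1475 RPM. Endothelial markers summed to 3.0 and 3.13 RPM against 8.46 and 9.50 RPM, with KDR lower and VWF at 0, and CDH5 reached the test only through the parental libraries, at 0 and 1 reads against 18 and 22. Leukocyte markers summed to 87.2 and 83.0 RPM against 109 and 110 RPM, with CD68 lower, CD14 not passing (adjusted p = 0.177) and PTPRC and CD3E at 0. Fibroblast markers summed to 14 and 11.8 RPM against 17.0 and 18.1 RPM, with COL1A1, the 1 tested, not passing (adjusted p = 0.122) and DCN and PDGFRB at 0, and red cell markers, of which 0 were tested, did not exceed 0.809 RPM in sum. Their part in the differences of HOTAIR and the regulators was not tested, and in bulk RNA fewer cells of a type and less RNA per cell cannot be told apart.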

How the data were processed

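Total RNA of the resistant and the parental MDA-MB-468 line, 2 libraries each, had been read with the Ion AmpliSeq Transcriptome kit, 1 short amplicon per gene. The authors deposited log2 values per target, with 2 decimals, which are log2(RPM + 1) by their totals. The methods name the Torrent Mapping Alignment Program against the targeted transcripts, Bowtie2, bedtools and edgeR are listed in the submitters' processing notes, and the genome build is not given in the sources used here. Reads were recovered from the size of 1 read in each library. All values of up to 20 reads were whole within 0.1, and larger counts are approximate. Totals were 6839939 to 7979992 reads.

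The log2 values were fitted by group with limma 3.58.1 in R 4.3.3 (empirical Bayes, mean trend), over 12118 genes with at least 10 reads in 2 libraries, with Benjamini-Hochberg adjustment and calls at 0.05. The fit was tested on simulated data. A fold change is on the log2(RPM + 1) scale and understates the change of low genes. Values are given for HOX genes with a mean of at least 1 RPM in a group, and for up to 4 called members of each regulator list. HOTAIR, HOTAIRM1, EZH2, MTX2 and KIAA1715 were named after their values were seen. Members and lists were chosen with earlier results of these data known. Alternatives were pseudocounts of 0.25 and 4, no filter, a mean of 5 RPM, RLE scaling, limma-voom and a binomial sampling model on recovered reads, the replicate number as a block, and each library left out. Some values are not reported here, although they entered the counts and sums. The HCC1395 and MDA-MB-231 lines of the study were not analysed here.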

Additional observations from a re-analysis of the deposited data

How the results depend on the processing

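The counts of HOX genes higher and lower in MDA-MB-468/R stayed at 0 with either other pseudocount, a mean of at least 5 RPM, RLE scaling and limma-voom, and with each library left out. With no filter, 1 of 29 members (HOXA9) was higher, where 1820 of 16127 genes passed in either direction. The sampling model without replicate spread, which fits fewer sources of error by construction, gave 1 higher and 2 lower, and for the regulator lists 4 higher and 14 lower. Among all 12118 genes, 6397 passed in that model in either direction. No HOX gene was a DEG under any alternative. RLE scaling moved the median of all genes from −0.03 to 0.0022 and gave 2 regulators higher. With a library left out, its partner was assumed to vary like the other group. The regulator counts then ran from 0 to 3 higher and from 0 to 5 lower, the HOXC median from −0.377 to 0.138, and the lowest adjusted p of a HOX gene from 0.0975 to 0.435. The HOXB median was −0.02 with no filter. The same replicate numbers did not pair the libraries, since replicate differences correlated at 0.0087 between the lines. With the number as a replicate block, 0 HOX genes passed (lowest adjusted p 0.113), 1 regulator was higher and 6 were lower, and HOTAIR passed (adjusted p = 0.0392). With 2 libraries a line and 20 to 90 reads for most tested members, small differences could have been missed, within the limits that the intervals give.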

Other observations

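Of 58 homeobox targets outside the clusters (engrailed, LIM, Iroquois, distal-less and related families), 17 were tested, 2 were higher and 1 was lower in MDA-MB-468/R, beside 5.36% and 10.6% of all genes, or 16% in either direction. Since SIX2 and EN1 reached the test only through the line in which they were high, their values are given as levels, and IRX6 is the call that does not rest on this. IRX6, an Iroquois gene, was at 41.5 and 40.4 RPM in the resistant libraries and at 12.5 and 14.2 RPM in MDA-MB-468/WT (log2 fold change 1.55, limma adjusted p = 7.3e-04). SIX2, a regulator of kidney progenitors, was at 7.46 and 5.32 RPM against 0.729 and 1.0 RPM. IRX6 passed under each of its 12 alternatives. EN1, the engrailed gene, had no read in either MDA-MB-468/R library and was at 2.05 and 1.38 RPM in MDA-MB-468/WT. No fold is given, because 0 reads in a library allow up to 3. TGIF1, with the next lowest log2 fold change at −0.51, did not pass (adjusted p = 0.102). A further 25 of the 58 targets were at 0 reads in every library.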
